A study of Homo sapiens with 8 samples.

Results

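The genes ARG1, CCDC83, PREX2 and DHRS2 were 4 of the 55737 genes in a table of RNA sequencing of LNCaP cells, and were chosen by symbol because their mRNA was lower after OSMI-2 alone. All 4 were found in the table, and all 4 passed the filter on low values, an average of 10 or more normalised counts, as did 19393 genes in all. LNCaP is a human prostate cancer line from a lymph node metastasis that depends on the androgen receptor and makes prostate-specific antigen. The cells had 4 hours in 1 of 4 conditions, namely a control whose vehicle the labels do not describe, OSMI-2 at 40 µM, AT7519 at 0.5 µM, or the combination of both at these same doses. Each condition had 2 libraries, so every mean ± SD below is over n = 2. A single cell line stands for prostate cancer here, and nothing in the labels says that the replicates were separate cultures, so p-values reflect no more than the scatter of these libraries, possibly technical. The series asks how blocking O-GlcNAc transferase makes prostate cancer cells depend on CDK9.

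OSMI-2 blocks OGT, which places a single N-acetylglucosamine sugar on serines and threonines of proteins of the nucleus and cytosol, among them transcription factors and RNA polymerase II. AT7519 blocks several cyclin-dependent kinases including CDK9, whose kinase activity releases paused RNA polymerase II into elongation. The 4 genes have different roles. ARG1 encodes the cytosolic, liver-type arginase, which splits arginine into ornithine and urea as the last step of the urea cycle. CCDC83 encodes a coiled-coil protein best known from testis and counted among cancer-testis antigens. PREX2 encodes an exchange factor that loads the small GTPase Rac with GTP. DHRS2, also called HEP27, encodes a short-chain dehydrogenase/reductase.

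RefSeq promoter windows were searched for 3 of the 4 genes, all but PREX2, which was left out of this search. Their windows, from 250 bases before to 50 bases after the RefSeq start (GRCh38.p14, plus strand), are shown because the 4 genes were lower together, with the letters TATAAA or their reverse complement in capitals. The windows are chr6:131572976-131573275 for ARG1, chr11:85855133-85855432 for CCDC83 and chr14:23629865-23630164 for DHRS2.
ARG1: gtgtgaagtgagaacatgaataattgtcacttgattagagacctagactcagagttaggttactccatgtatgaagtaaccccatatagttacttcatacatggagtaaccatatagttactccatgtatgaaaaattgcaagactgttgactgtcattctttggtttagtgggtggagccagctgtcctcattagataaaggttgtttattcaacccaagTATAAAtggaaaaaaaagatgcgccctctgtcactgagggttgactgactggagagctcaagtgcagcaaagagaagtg
CCDC83: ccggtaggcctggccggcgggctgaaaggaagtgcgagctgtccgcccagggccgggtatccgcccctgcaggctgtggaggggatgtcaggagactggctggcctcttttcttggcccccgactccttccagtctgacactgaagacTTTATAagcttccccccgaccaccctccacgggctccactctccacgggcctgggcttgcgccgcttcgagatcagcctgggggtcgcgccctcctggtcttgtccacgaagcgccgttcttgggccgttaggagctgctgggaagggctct
DHRS2: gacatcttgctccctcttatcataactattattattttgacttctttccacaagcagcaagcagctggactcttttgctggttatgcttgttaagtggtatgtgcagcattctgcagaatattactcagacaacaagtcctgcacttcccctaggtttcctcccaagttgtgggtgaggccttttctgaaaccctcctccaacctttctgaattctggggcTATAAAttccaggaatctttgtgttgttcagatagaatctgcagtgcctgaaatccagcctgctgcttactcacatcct

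The 3 windows had the letters TATAAA on 1 of the strands, compared with 11.5% of 35116 RefSeq promoter windows of the same length. In ARG1 and DHRS2 the match was on the gene's strand with its first base at -29, counted with no position 0 from the first transcribed base as 1, and in CCDC83 it was on the opposite strand from -102. ARG1 and DHRS2 were poor in G and C (40% and 44%, with 1 and 0 CG dinucleotides), whereas CCDC83 had 66% and 20, and the median window had 58.7% and 14. Of the 6 other motifs searched on both strands, GGGCGG was found in CCDC83 at 2 places (45% of all windows had it) and AGAACA in ARG1 (14.8%). CCAAT (34.6% of all windows), CACGTG (7.26%), TGACG (24.6%) and TGANTCA (7.71%) were not found in the 3 windows. The motifs do not overlap each other in these windows, and a match of letters is a description and not a bound site.

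The libraries held 60152710 to 154367238 reads assigned to genes, recovered from the deposited values, and 1 read was worth 0.588 to 1.82 normalised counts. The count limit of 3 reads, taken as the floor, was 1.76 to 5.47 normalised counts, and the smallest number of reads behind a value of the 4 genes was 49, for ARG1 in combination replicate 2. Intervals and floors cover counting error only. All 11 markers of LNCaP and luminal prostate cells averaged 10 or more normalised counts, with sums of 507814 to 607348 per library. Of markers of other cells, 6 of 10 for hepatocytes, 1 of 10 for myeloid cells, 1 of 3 for basal prostate cells and 4 of 6 for fibroblasts reached that average, and TYROBP was 0 in every library. The hepatocyte sums, mostly CPS1, were 4074 to 4127 in control, 4315 to 4372 with OSMI-2, 6183 to 6459 under AT7519 and 6360 to 7162 under the combination. Those of myeloid markers, mostly S100A9, were 99.97 to 117, 69.7 to 94.5, 143 to 186 and 95.3 to 170 in that order, those of basal markers 41.8 to 53.1, 58.9 to 67.9, 55.8 to 61.0 and 75.9 to 106, and those of fibroblast markers 2599 to 2600, 2288 to 3018, 3301 to 3995 and 3662 to 4382. Their part in the levels of the 4 genes was not tested.

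With OSMI-2 alone, the contrast that chose the genes, ARG1 went from 126 and 184 normalised counts in the control libraries to 64.8 and 54.7. CCDC83 went from 289 and 401 to 121 and 195. ARG1 had its wider gap between the control libraries, and CCDC83 was higher in replicate 2 of both groups. PREX2 went from 189 and 205 to 76.5 and 116, and here the wider gap was between the OSMI-2 libraries. DHRS2 went from 826 and 775 to 458 and 350.5. For each gene both OSMI-2 libraries lay below both control libraries, as for 30.1% of all genes tested. In bulk libraries, fewer cells that make an mRNA and less of it per cell cannot be told apart. The fitted falls, given without a test because they chose the genes, were 2.53-fold for ARG1 (log2 change -1.34, SE 0.265), 2.21-fold for CCDC83 (-1.15, SE 0.27), 2.08-fold for PREX2 (-1.06, SE 0.247) and 1.99-fold for DHRS2 (-0.995, SE 0.152).

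In that contrast 3.02% of genes tested were called in either direction and 2.38% were called lower (an adjusted p below 0.05), and nothing is read from it for genes chosen there. The total of 586 calls in either direction became 2 (control replicate 2 left out), 15 (OSMI-2 replicate 2), 117 (OSMI-2 replicate 1), 297 (control replicate 1), 883 (AT7519 replicate 2) or 892 (AT7519 replicate 1). Leaving out 1 library gave log2 changes of -1.61 to -1.07 for ARG1, -1.49 to -0.80 for CCDC83, -1.35 to -0.76 for PREX2 and -1.19 to -0.80 for DHRS2. By size of fall among the 15285 genes averaging 50 or more normalised counts, ARG1 stood at position 2, CCDC83 at 7, PREX2 at 12 and DHRS2 at 17. BRDT, the testis-specific bromodomain gene, had a log2 change of -1.04, between those of PREX2 and DHRS2. UGT2B10, a glucuronosyltransferase gene, had -0.94. Neither is among the 4 genes, and in all 13 of those 15285 genes outside the 4, BRDT included, fell at least as far as DHRS2.

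**Figure D1:**
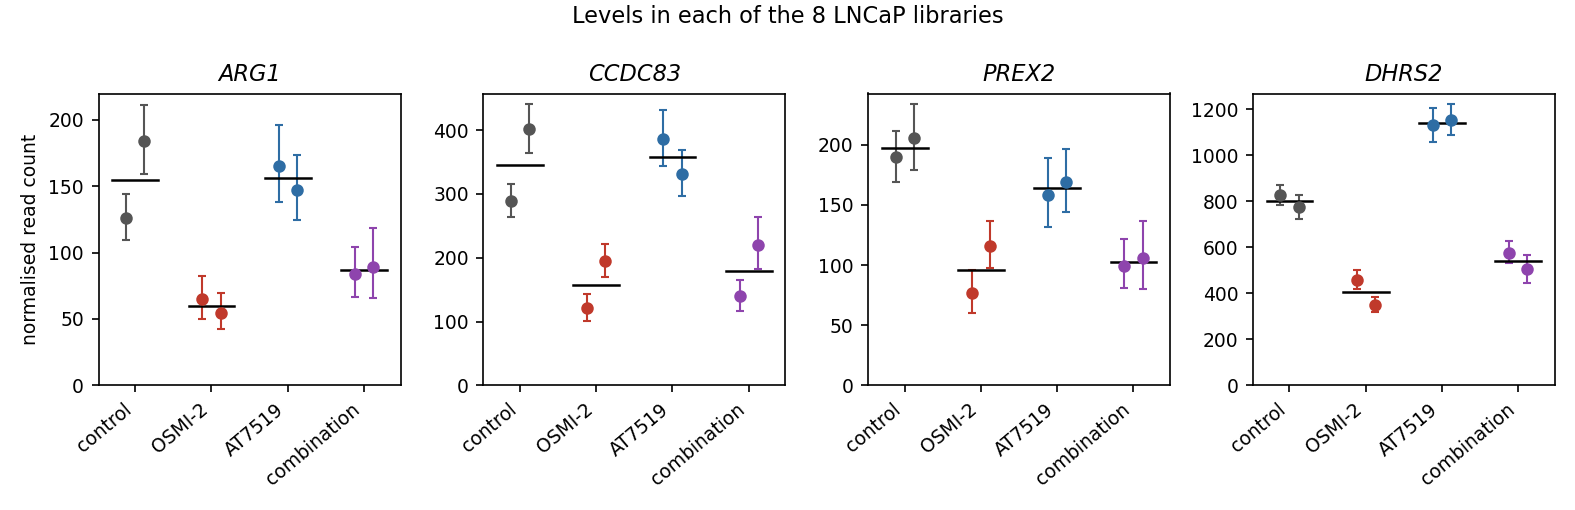
Normalised read count (y axis, from 0, a separate scale for each gene) of ARG1, CCDC83, PREX2 and DHRS2 in the 2 libraries of each group. Points are libraries with exact 95% Poisson intervals of their read numbers, and black lines are group means. In each panel both OSMI-2 points lie below both control points and both combination points lie below both AT7519 points.

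The stated rule of the choice, lower with OSMI-2 alone, does not use the libraries with AT7519. The combination against AT7519 asks what OSMI-2 did in these other libraries, now in cells whose CDKs were blocked. However, the rule gives no cut-off, and the genes were chosen with earlier results of these data known. Whether these libraries also influenced the choice cannot be told. All 4 genes were again lower with OSMI-2, and 3 of them fell by the test. DHRS2 went from 1129 and 1153 normalised counts under AT7519 to 576 and 503 under the combination. It fell 2.12-fold (log2 change -1.08, SE 0.152, limma adjusted p = 0.000388). CCDC83 went from 385 and 331 under AT7519 to 139 and 221 under both agents. It fell 2.03-fold (log2 change -1.02, SE 0.27, limma adjusted p = 0.017), with the combination libraries spread more widely than those of AT7519. ARG1 went from 165 and 147 to 84.1 and 89.4, and both pairs lay close. It fell 1.79-fold (log2 change -0.84, SE 0.265, limma adjusted p = 0.039). PREX2 was at 159 and 169 under AT7519 and at 99.4 and 106 under both agents. Its log2 change was -0.67 (SE 0.247, 95% interval -1.20 to -0.14), which did not pass (limma adjusted p = 0.0732).

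For each of the 4 genes both combination libraries lay below both AT7519 libraries, as for 30.6% of genes tested. The 3 of 4 called lower stand beside 12.5% of genes tested called lower in this comparison, 7.21% called higher and 19.7% called either way. Among those 15285 genes DHRS2 stood at position 154 from the lowest log2 change, CCDC83 at 183, ARG1 at 361 and PREX2 at 657. The fitted falls without and with AT7519 were 1.99-fold and 2.12-fold for DHRS2, 2.21-fold and 2.03-fold for CCDC83, 2.53-fold and 1.79-fold for ARG1, and 2.08-fold and 1.59-fold for PREX2. Their difference was fitted too, but nothing is read from it, because the first of each pair chose the genes.

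The call of DHRS2 was kept in all 21 alternatives (adjusted p of at most 0.0384). That of CCDC83 was lost without AT7519 replicate 1 (adjusted p = 0.0911), without combination replicate 1 (0.128) and with no mean-variance trend (0.118). That of ARG1 lay near the threshold, and it passed in 9 of 21 alternatives (adjusted p from 0.0235 to 0.153). It was lost without control replicate 2 (0.0525), OSMI-2 replicate 1 (0.0525) or replicate 2 (0.051), AT7519 replicate 1 (0.153) or replicate 2 (0.0625), and combination replicate 1 (0.106) or replicate 2 (0.104). PREX2 passed in 1 alternative, after quantile normalisation (adjusted p = 0.0497). In all 21 alternatives the log2 change of each of the 4 genes in this comparison was below 0. Over all genes there were 1399 higher and 2416 lower calls as deposited. The split became 2023 and 1534 with totals made equal, 2191 and 1440 with equal upper quartiles, 1372 and 1454 after quantile normalisation, and 995 and 2305 when mitochondrial mRNAs set the scale. The 2416 genes called lower became 1415 without AT7519 replicate 1 and 1151 without combination replicate 2.

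**Figure D2:**
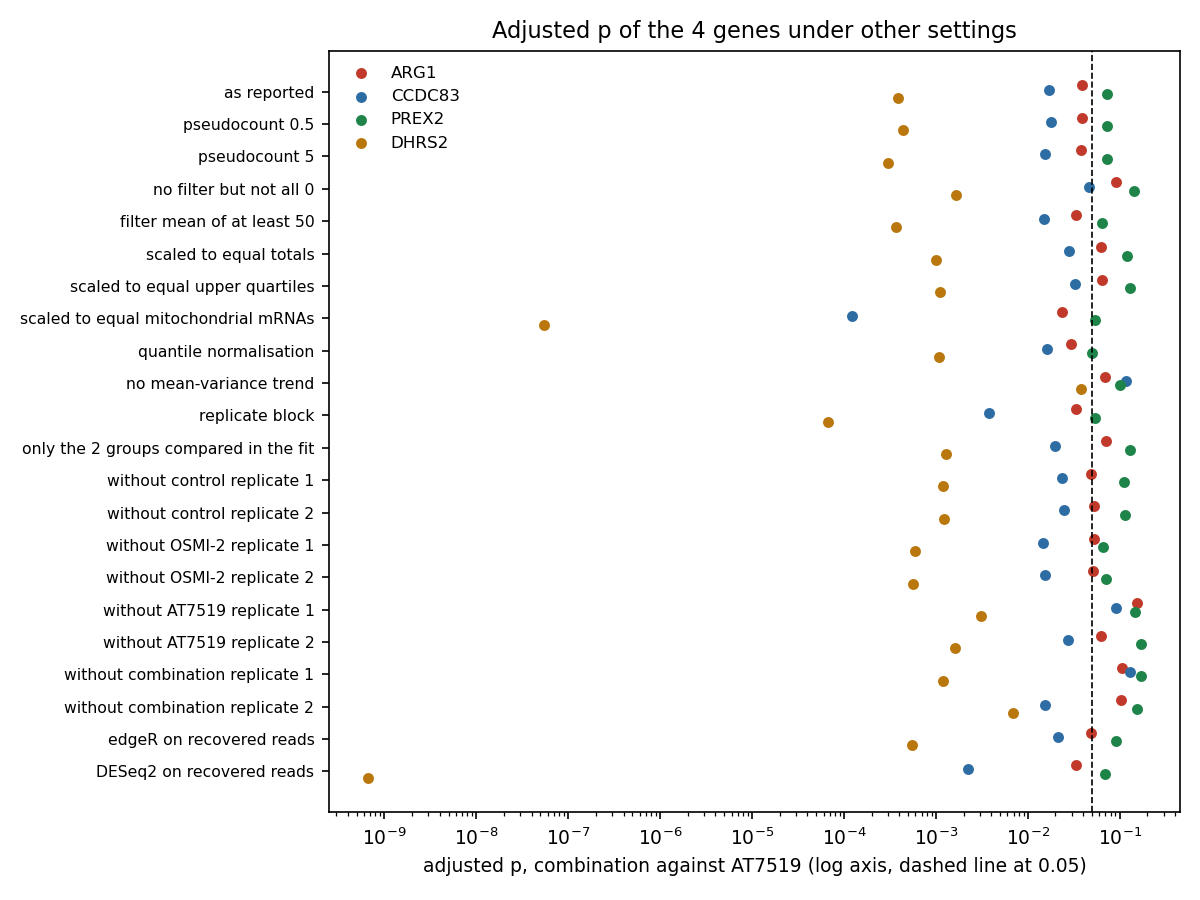
Adjusted p (x axis, log scale, dashed line at 0.05) of the combination against AT7519 for the 4 genes, for the analysis as reported and 21 alternatives (y axis). Points are coloured by gene, and DHRS2 lies left of the line in every setting while ARG1 and PREX2 lie close to it.

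The genes as a whole showed a like pattern in these separate libraries. Of the 461 genes called lower with OSMI-2 alone, 397 (86.1%) were also called lower in the combination against AT7519. They made up 16.4% of the 2416 lower calls there, and 12.5% of all genes tested were called lower. Of the same 461 genes, 455 (98.7%) had a log2 change below 0 there, against 52.1% of all genes tested. The 2 comparisons share no library, though they share the fitted variance. With only the 2 groups compared in each fit, 59.5% (560 of 941) of the genes called lower with OSMI-2 alone were called lower in both. Without AT7519 replicate 1 the share was 53.3% (345 of 647), and without combination replicate 2 it was 51.5% (205 of 398). Without control replicate 1, control replicate 2, OSMI-2 replicate 1 or OSMI-2 replicate 2 the genes called in both were 221, 1, 86 and 5, and with no mean-variance trend 0, since 238, 1, 94, 6 and 0 genes were then called lower with OSMI-2 alone.

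**Figure D3:**
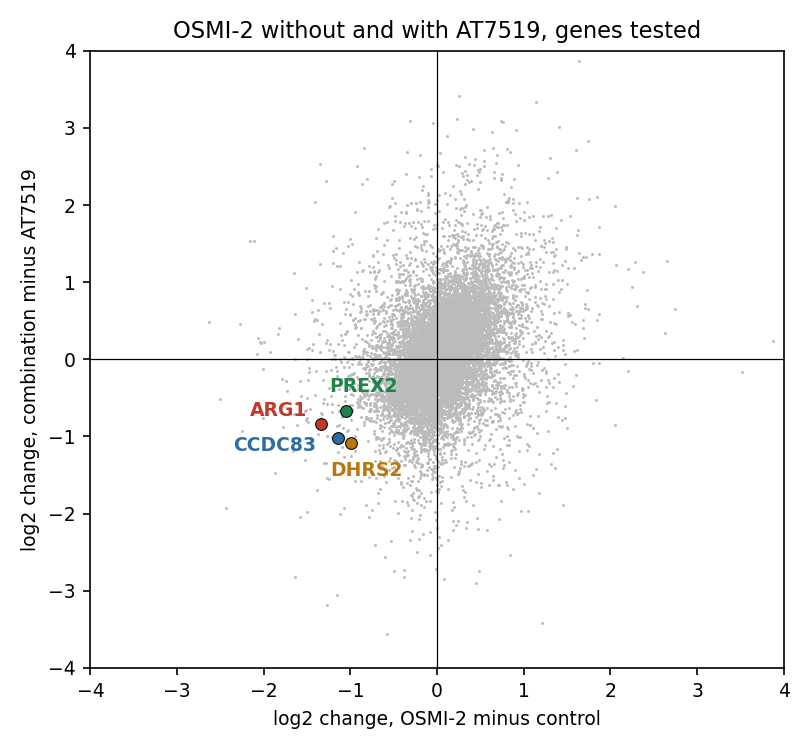
Log2 change of each tested gene with OSMI-2 against control (x axis) and with the combination against AT7519 (y axis), 2 comparisons that share no library. Grey points are genes (19392 drawn, 1 outside the axes), and the 4 coloured points, ARG1, CCDC83, PREX2 and DHRS2, lie where both changes are below 0.

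AT7519 alone against control asks what blocking CDKs did to the 4 genes. It shares the control libraries with the contrast that chose them, so the choice favours a fall. None of the 4 fell by the test, while 27.2% of genes tested did, and 1 of 4 rose, beside 26.0% (53.2% were called either way). The gene that rose was DHRS2, from 800.2 ± 36.0 to 1141 ± 17.4 normalised counts, with both AT7519 libraries above both controls, as for 37.7% of genes (1.43-fold, log2 change 0.51, SE 0.152, limma adjusted p = 0.0111). ARG1 was at 155 ± 41.2 in control and 156 ± 12.3 with AT7519 (log2 change 0.03, 95% interval -0.53 to 0.60, limma adjusted p = 0.926). CCDC83 was at 345 ± 79.0 and 358 ± 38.2 (log2 change 0.07, 95% interval -0.51 to 0.65, limma adjusted p = 0.849). For these 2 genes the libraries overlapped between the groups. PREX2 was at 197 ± 11.1 and 164 ± 7.28, with both AT7519 libraries below both controls, as for 38.4% of genes (log2 change -0.27, 95% interval -0.80 to 0.26, limma adjusted p = 0.385).

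These directions rest on the scale of the libraries. The 13 mitochondrial mRNAs took 4.45% to 5.53% of reads where AT7519 was absent and 6.57% to 7.73% where it was present. When these mRNAs set the scale, the median log2 change with AT7519 was -0.911, and all 4 genes fell by the test (log2 change -0.40 for DHRS2, -0.84 for CCDC83, -0.88 for ARG1 and -1.18 for PREX2, limma adjusted p of at most 0.0389). With totals made equal the median was -0.343 and DHRS2 missed the threshold (log2 change 0.17, limma adjusted p = 0.379). The rise of DHRS2 was also lost without control replicate 2 (adjusted p = 0.0771).

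The combination against control gives the net level after both agents, again with the shared control libraries. All 4 genes fell, beside 27.6% of genes tested called lower and 53.9% called either way. CCDC83 was 1.94-fold lower (log2 change -0.95, SE 0.27, limma adjusted p = 0.00813), PREX2 1.91-fold (-0.94, SE 0.247, 0.00523), ARG1 1.75-fold (-0.81, SE 0.265, 0.0191) and DHRS2 1.48-fold (-0.57, SE 0.152, 0.00564). For each, both combination libraries lay below both controls, as for 38.0% of genes. ARG1 lost its call when control replicate 2 (adjusted p = 0.223) or combination replicate 1 (0.064) was left out, and so did CCDC83 (0.108 and 0.0989). CCDC83 was also lost with no mean-variance trend (0.0597) and DHRS2 after quantile normalisation (log2 change -0.29, adjusted p = 0.125).

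AT7519 added to OSMI-2 shares the OSMI-2 libraries with the choice, which favours a rise. DHRS2 rose from 404 ± 76.2 to 539.8 ± 51.5 normalised counts (1.34-fold, log2 change 0.43, SE 0.152, limma adjusted p = 0.0285), 1 of 4 beside 27.5% of genes called higher and 54.8% called either way. Without OSMI-2 replicate 2 or combination replicate 1 it did not pass (adjusted p = 0.302 and 0.154), nor at equal totals (0.65), with no mean-variance trend (0.0617) or with only these 2 groups in the fit (0.0565), and scaled to mitochondrial mRNAs it fell (log2 change -0.43, limma adjusted p = 0.0311). ARG1 was at 59.7 ± 7.12 and 86.7 ± 3.74, with both combination libraries above both OSMI-2 libraries, as for DHRS2 and 40.1% of genes (log2 change 0.53, limma adjusted p = 0.103), and it passed after quantile normalisation (0.69, adjusted p = 0.0402). CCDC83 (158 ± 52.3 and 180.05 ± 57.4, log2 change 0.19, 95% interval -0.39 to 0.77) and PREX2 (96.3 ± 27.9 and 103 ± 4.47, log2 change 0.12, 95% interval -0.41 to 0.65) had overlapping libraries and did not pass (limma adjusted p = 0.572 and 0.707). Scaled to mitochondrial mRNAs, CCDC83 (log2 change -0.65) and PREX2 (-0.72) fell as well (limma adjusted p of at most 0.0152).

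**Figure D4:**
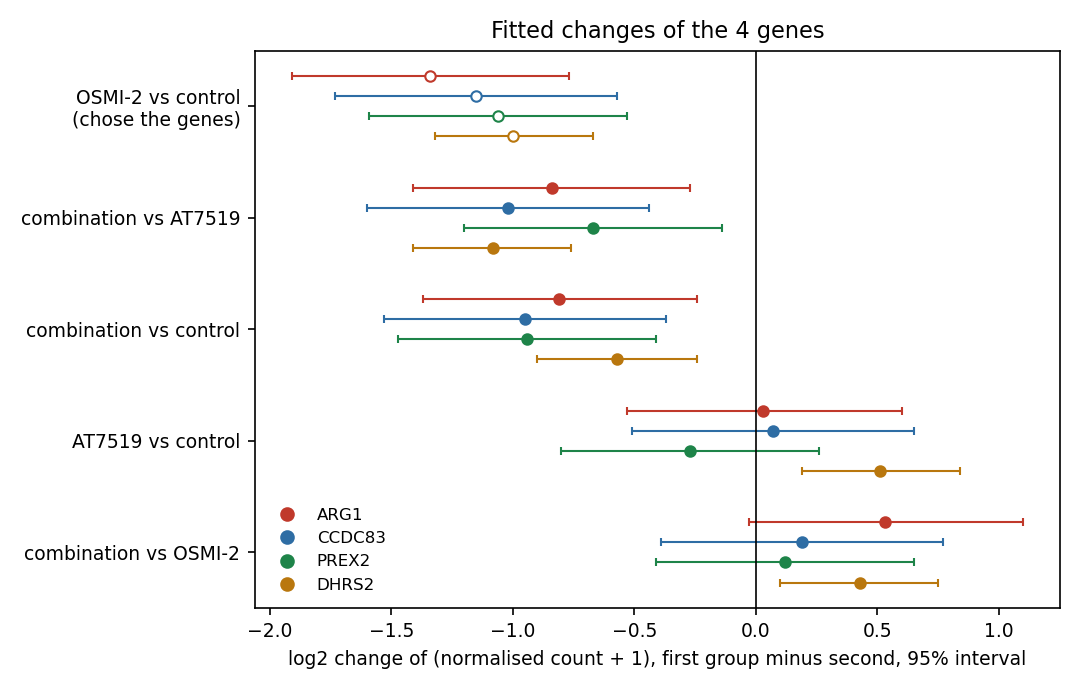
Fitted log2 change (x axis, first group minus second, with 95% intervals) of the 4 genes in 5 comparisons (y axis). Open points mark the comparison that chose the genes, and the intervals lie below 0 for all 4 genes in the combination against AT7519 and against control.

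By GENCODE annotation matched by symbol, ARG1 lies on chromosome 6, CCDC83 on chromosome 11, PREX2 on chromosome 8 and DHRS2 on chromosome 14, all protein-coding and on the plus strand. The genes span 11.2, 64.9, 285 and 15.5 kb in that order, and their merged exons add up to 1.56, 2.36, 10.8 and 1.73 kb. Per kilobase of merged exons, DHRS2 was the most abundant in control, at 463 ± 20.9 normalised counts per kb, followed by CCDC83 at 146 ± 33.5, ARG1 at 99.6 ± 26.5 and PREX2 at 18.3 ± 1.04. CCDC83 and ARG1, next to each other in that order, did not differ beyond their spread. The order of the 4 means was the same in every group. With OSMI-2 the levels per kb were 234 ± 44.1, 66.9 ± 22.2, 38.4 ± 4.58 and 8.96 ± 2.60, and with AT7519 they were 661 ± 10.1, 152 ± 16.2, 100 ± 7.91 and 15.2 ± 0.677. With the combination they were 313 ± 29.8, 76.4 ± 24.4, 55.7 ± 2.40 and 9.55 ± 0.416, and here the SD ranges of CCDC83 and ARG1 overlapped again.

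Close relatives and chromosomal neighbours of the 4 genes were not called in the combination against AT7519. ARG2, the mitochondrial arginase, was far higher in reads than ARG1, at 22382 ± 830 normalised counts with AT7519 and 21312 ± 1340 with the combination (log2 change -0.07, SE 0.0869, limma adjusted p = 0.623). With OSMI-2 alone ARG2 was at 16491 ± 306 and in control at 17078 ± 2042 (log2 change -0.05, SE 0.0869, limma adjusted p = 0.852). DHRS4, a peroxisomal relative of DHRS2 and its next protein-coding gene, was at 5414 ± 137 with AT7519 and 5209.9 ± 144 with the combination (log2 change -0.06, SE 0.0843, limma adjusted p = 0.7). DHRS4L2 was at 1506 ± 139 and 1564 ± 24.1 (log2 change 0.06, SE 0.124, limma adjusted p = 0.793). PREX1, the relative of PREX2, was at 0 to 8.83 normalised counts and was not tested. The difference between a gene and its relative was not tested.

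AT7519 alone moved 3 relatives in the direction of DHRS2 on the deposited scale. ARG2 rose 1.31-fold (limma adjusted p = 0.00151), DHRS4 1.49-fold (5.15e-05) and DHRS4L2 1.27-fold (0.0314), and all 3 turned to falls when scaled to mitochondrial mRNAs (log2 change -0.52, -0.34 and -0.57). ARG2 also missed the threshold with totals made equal (adjusted p = 0.637) or after quantile normalisation (0.53). DHRS4L2 missed it with totals made equal (0.991), with no mean-variance trend (0.0731), or without control replicate 1 (0.0765), control replicate 2 (0.143) or AT7519 replicate 1 (0.173).

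MED23, which encodes a Mediator subunit and overlaps ARG1 in the RefSeq annotation, had 5791 ± 535 normalised counts with AT7519 and 6237 ± 299 with the combination (log2 change 0.11, SE 0.0931, limma adjusted p = 0.459). It lies on the other strand, and whether counting used strand is not given in the sources used here, so reads of MED23 could enter the count of ARG1. The flanking genes AKAP7 (log2 change -0.01) and ENPP3 (0.40) of ARG1, SYTL2 (0.24) and PICALM (-0.16) of CCDC83 and C8orf34 (-0.16) of PREX2 did not pass either (limma adjusted p of at least 0.134). CPA6, on the other side of PREX2, and JPH4, before DHRS2, had means below the filter.

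**Figure D5:**
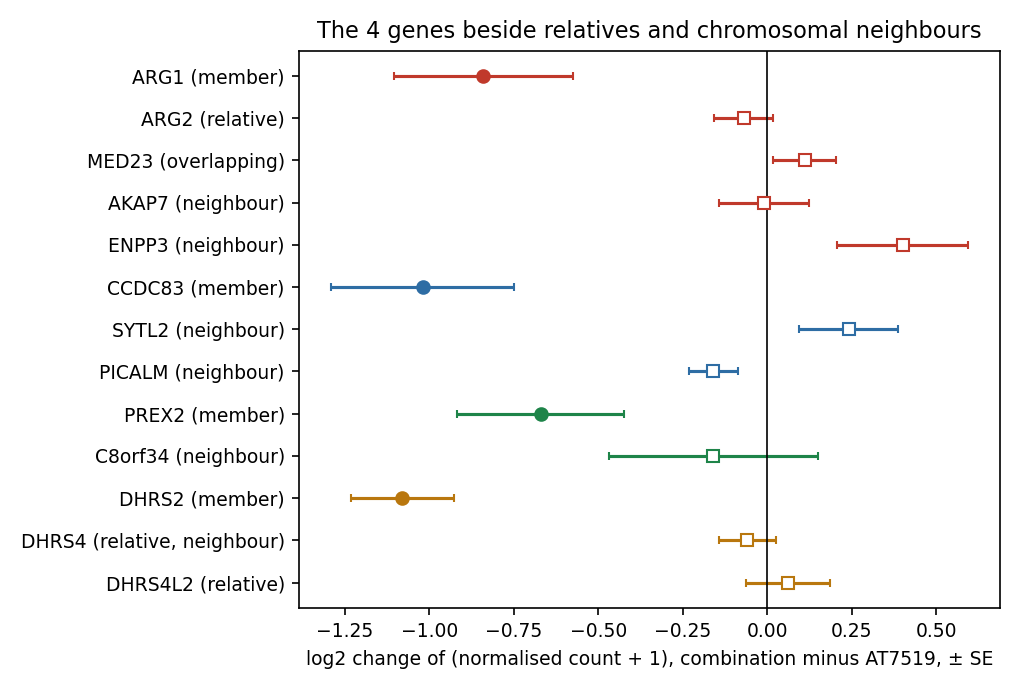
Log2 change between the combination and AT7519 (x axis, ± SE) of the 4 genes (filled circles) and of their tested relatives and chromosomal neighbours (open squares, in the colour of the gene they belong to). The 4 genes lie between -1.08 and -0.67 and the others between -0.16 and 0.40.

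The lists of genes that work with or resemble the 4 were written with earlier results of these data known, and their counts leave out the 4 genes. Of 30 tested genes of the urea cycle and arginine metabolism, 0 rose and 4 fell in the combination against AT7519. Of all genes tested, 7.21% rose and 12.5% fell there. The list had a median log2 change of -0.0687 beside -0.0174 for all genes. The falls were 2 without combination replicate 1 and 1 without combination replicate 2, 3 in edgeR and 5 in DESeq2. With no mean-variance trend 0 genes of the list fell. With totals made equal, with equal upper quartiles and after quantile normalisation 2 fell in each case. The median turned to 0.0155 with totals made equal, 0.0298 with equal upper quartiles and 0.0258 after quantile normalisation. The falls with the largest size were those of the polyamine enzymes. SRM, spermidine synthase, went from 13562 ± 1183 to 9756 ± 405 (1.39-fold lower, log2 change -0.47, SE 0.0846, limma adjusted p = 0.00179). ODC1, ornithine decarboxylase, which uses the ornithine that arginase makes, went from 56286 ± 3356 to 42221 ± 2906 (1.33-fold lower, log2 change -0.42, SE 0.0866, limma adjusted p = 0.00469), and did not pass without combination replicate 2 (adjusted p = 0.0639) or with no mean-variance trend (0.0913), where SRM was also lost (0.0557). With AT7519 alone 18 of the 30 rose and 3 fell, beside 26.0% and 27.2% of all genes tested. However, 0 rose and 26 fell when scaled to mitochondrial mRNAs. The rises of OAZ1, which restrains ornithine decarboxylase (log2 change 0.91), and of the proline enzyme gene ALDH4A1 (0.78) were -0.01 and -0.14 on that scale, while GATM (-1.21), which starts creatine synthesis from arginine, and the arginine transporter gene SLC7A1 (-0.32) fell. SLC7A1 was lost without AT7519 replicate 2 (adjusted p = 0.103).

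Of 35 tested genes of Rac exchange factors and PI3-kinase signalling, 1 rose and 5 fell in the combination against AT7519 (median log2 change -0.0566), with 3 falls without combination replicate 1, and the median turned to 0.0276 with totals made equal, 0.0419 with equal upper quartiles and 0.032 after quantile normalisation. Of all genes tested, 7.21% rose and 12.5% fell in the combination against AT7519. PIK3R1, a regulatory subunit of PI3-kinase, went from 6385 ± 822 to 3849 ± 37.4 (1.65-fold lower, log2 change -0.72, SE 0.0946, limma adjusted p = 0.000251). PIK3R3, another such subunit, was 1.60-fold lower (limma adjusted p = 0.000385). The Rac exchange factor gene DOCK5 was the 1 that rose, from 4528 ± 744 to 6340 ± 558 (1.41-fold, log2 change 0.49, SE 0.114, limma adjusted p = 0.00829), though not without AT7519 replicate 1 (adjusted p = 0.0815), combination replicate 1 (0.0644) or the mean-variance trend (0.101). With OSMI-2 alone the log2 changes of PIK3R1 and PIK3R3 were -0.10 and 0.05 (limma adjusted p of at least 0.671). With AT7519 alone 10 of the 35 rose and 12 fell, beside 26.0% and 27.2% of all genes tested. When scaled to mitochondrial mRNAs, 0 rose and 33 fell. PIK3R1 (2.84-fold) and the Rac exchange factor gene TIAM2 (2.63-fold) fell most, and the rises of the G protein subunit gene GNB2 (log2 change 0.80) and of RAC1 (0.55) were -0.12 and -0.37 on that other scale.

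Of 41 tested short-chain dehydrogenases other than DHRS2, 1 rose and 5 fell in the combination against AT7519 (median log2 change -0.00834). Of all genes tested, 7.21% rose and 12.5% fell there. The counts of the list became 4 and 2 with totals made equal, 5 and 0 with equal upper quartiles and, after quantile normalisation, 3 and 1. They were 1 and 0 with no mean-variance trend, and 1 and 1 with only the 2 groups compared in the fit. Without AT7519 replicate 1, combination replicate 1 or combination replicate 2 the falls were 1, 3 and 0. The retinol dehydrogenase gene RDH5 rose, from 29.5 ± 1.39 to 83.2 ± 29.3 (log2 change 1.42, SE 0.331, limma adjusted p = 0.00873), but not without combination replicate 2 (adjusted p = 0.0947). SPR, sepiapterin reductase, was 1.28-fold lower (limma adjusted p = 0.0277). It did not pass without AT7519 replicate 1 (log2 change -0.26) or combination replicate 2 (-0.30). Its call was also lost at equal totals (limma adjusted p = 0.0774), at equal upper quartiles (0.0983) and after quantile normalisation (0.14). With no mean-variance trend (0.0945) or only those 2 groups in the fit (0.0683) SPR did not pass either. RDH14 went from 1124 ± 352 to 702 ± 142 (log2 change -0.66, SE 0.184, limma adjusted p = 0.0225). RDH14 did not pass with no filter (adjusted p = 0.0558) or at equal upper quartiles (0.0521). It was also lost with no mean-variance trend (0.152) and with only those 2 groups in the fit (0.0573). Nor did it pass without AT7519 replicate 1 (log2 change -0.33) or combination replicate 2 (-0.45). With AT7519 alone 25 of the 41 rose and 5 fell, beside 26.0% and 27.2% of all genes tested. When scaled to mitochondrial mRNAs, 0 rose and 33 fell. RDH5 (log2 change -1.38) and RDH10 (-1.28) fell most, and the rises of HSD17B14 (0.82) and DHRS7 (0.75) were -0.09 and -0.16 on that other scale. HSD17B14 was also lost without control replicate 2 (adjusted p = 0.259) or AT7519 replicate 1 (0.0658).

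Of 34 tested cancer-testis genes other than CCDC83, 1 rose and 7 fell in the combination against AT7519 (median log2 change -0.191). Of all genes tested, 7.21% rose and 12.5% fell there. With totals made equal the counts of the list were 1 and 3. The falls were 4 without control replicate 1 or control replicate 2, and 3 without AT7519 replicate 1 or combination replicate 2. BRDT went from 1447 and 2091 to 970 and 853 normalised counts (1.91-fold lower, log2 change -0.93, SE 0.178, limma adjusted p = 0.00273), and was lost with no mean-variance trend (0.0751). TTK, a kinase of the mitotic checkpoint that is also a gene of dividing cells, was 1.43-fold lower (limma adjusted p = 0.00404), and was lost in that same alternative (0.0693). AKAP3, a sperm anchoring protein gene, was the 1 that rose (57.0 ± 7.27 to 104 ± 3.02, limma adjusted p = 0.0388), and it was lost without OSMI-2 replicate 1 (0.0639), OSMI-2 replicate 2 (0.0642), AT7519 replicate 1 (0.0619) or replicate 2 (0.122), and combination replicate 1 (0.0821) or replicate 2 (0.135). The rise of AKAP3 was also lost with no filter (limma adjusted p = 0.0926), after quantile normalisation (0.0894) and at equal mitochondrial mRNAs (0.0609). Nor did it pass with no mean-variance trend (0.0625), with only the 2 groups compared in the fit (0.112) or in DESeq2 (DESeq2 adjusted p = 0.0556). With AT7519 alone 10 of the 34 rose and 8 fell, beside 26.0% and 27.2% of all genes tested. When scaled to mitochondrial mRNAs, 0 rose and 23 fell. ZNF165 (log2 change -1.23) and AKAP3 (-0.75) fell most, the latter not without control replicate 1 (adjusted p = 0.272) or AT7519 replicate 2 (0.124), and the rises of PAGE1 (0.91) and MAGEA3 (0.75) were -0.00 and -0.16 on that other scale.

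The pattern over the 8 libraries was compared between genes by Pearson's r of log2 values, as a description, since the choice of the 4 genes fixes part of it and all values share library depth and scale. Among the 4 genes r was lowest for PREX2 with DHRS2 (0.724) and highest for CCDC83 with PREX2 (0.927). Of genes averaging 50 or more, those most like ARG1 included SLC25A13 (r = 0.986) and DIAPH3 (0.980). SLC25A13 encodes citrin, the mitochondrial carrier that supplies aspartate to the urea cycle. It went from 5087 ± 311 normalised counts under AT7519 to 4081 ± 86.0 under both agents (limma adjusted p = 0.0255). That call was lost at equal totals (adjusted p = 0.0787), at equal upper quartiles (0.101) and after quantile normalisation (0.149). It was also lost with no mean-variance trend (0.104) and with only those 2 groups in the fit (0.0595). Nor did SLC25A13 pass without AT7519 replicate 1 (log2 change -0.25), combination replicate 1 (-0.30) or combination replicate 2 (-0.34). Most like CCDC83 were KCNU1 (0.977), GRAMD1C (0.977) and FUBP1 (0.975). Most like PREX2 were the nuclear export receptor gene XPO1 (0.960), SPTLC3 (0.958), a subunit of serine palmitoyltransferase, and TRNT1 (0.947). Most like DHRS2 were the proteasome subunit gene PSMD11 (0.991) and the replicative helicase genes MCM4 (0.988) and MCM6 (0.988). In the combination against AT7519 the log2 changes of these 11 genes lay between -0.54 for MCM6 and -0.16 for TRNT1, smaller in size than those of the 4 genes they resemble in shape.

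The replicates differed gene by gene. CCDC83 was lower in replicate 1 than in replicate 2 by 0.47 (log2) in control, 0.69 with OSMI-2 and 0.66 with the combination, and higher by 0.22 with AT7519. DHRS2 libraries of the same group differed by at most 0.39 in size, with OSMI-2, and by 0.03 with AT7519. ARG1 differed most in control (0.54) and PREX2 with OSMI-2 (0.59).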

How the data were processed

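RNA was measured by sequencing of libraries made with a TruSeq kit, per the labels' protocols. Each deposited value is a signal for 1 gene in 1 library, whole reads scaled by a constant of that library, as the steps between values show. STAR, HTSeq, DESeq2 and the builds hg19 and GRCh37 are named in the submitters' processing notes. The sources used here do not give versions, annotation, filters or strandedness of the counting. Doses are in mM in the labels and in µM in the series design, whose unit is used here. The 28 lines without a gene name were dropped (they held 0% of the signal). Dividing each column by its smallest step gave whole reads for 100% of values within 0.01, from 60152710 to 154367238 per library.

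Genes averaging 10 or more normalised counts were fitted as log2(value + 1) in 1 limma model (version 3.58.1, R 4.3.3) of the 4 group means with a mean-variance trend, with 4 residual and 10.1 prior degrees of freedom. Folds come from the fitted log2 change, which understates the change of low genes. Two-sided p-values had Benjamini-Hochberg adjustment over the 19393 genes tested, and genes below 0.05 were called. The fit was tested on simulated data. The 21 alternatives varied the pseudocount, filter, scaling, trend, samples and block, and ran edgeR 4.0.16 and DESeq2 1.42.0 on the recovered reads. The 4 genes, the lists and the tests were chosen with earlier results of these data known. Named genes were the 4 members, their close relatives, BRDT and UGT2B10, the nearest protein-coding genes, the 3 genes of highest r for each member, and up to 2 rises and 2 falls per list averaging 50 or more in the combination against AT7519 and in AT7519 against control; 1 gene that this rule names is not reported here. Promoter windows are RefSeq's on GRCh38.p14, and no other coordinates are given because the values rest on an older build.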

Additional observations from a re-analysis of the deposited data

How the results depend on the processing

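In the 21 alternatives no result of the 4 genes changed sign in the comparison of OSMI-2 with control, of the combination with control or of the combination with AT7519. For ARG1 in the combination against AT7519 the alternatives that lost the call were no filter (log2 change -0.84, adjusted p = 0.091), equal totals (-0.76, 0.0621), equal upper quartiles (-0.74, 0.0647), no mean-variance trend (-0.84, 0.0684) and only those 2 groups in the fit (-0.84, 0.0718), and leaving out 1 library gave -0.92 to -0.76. CCDC83 was lost with no mean-variance trend (-1.02, 0.118), and leaving out 1 library gave -1.35 to -0.69. PREX2 passed after quantile normalisation (-0.78, 0.0497).

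Signs turned in the comparisons with and without AT7519. Against control, AT7519 gave ARG1 -0.31 at equal totals, -0.88 at equal mitochondrial mRNAs and -0.011 in edgeR, CCDC83 -0.27 and -0.84 at the first 2 of these scales, and DHRS2 -0.40 at the second. Leaving out 1 library gave ARG1 -0.24 to 0.31 and CCDC83 -0.17 to 0.30 there; those that turned the sign were control replicate 1 (-0.24 and -0.17) and AT7519 replicate 1 (-0.046 and -0.039). Against OSMI-2, the combination gave, at equal mitochondrial mRNAs, ARG1 -0.31, CCDC83 -0.65, PREX2 -0.72 and DHRS2 -0.43, and at equal totals CCDC83 -0.14 and PREX2 -0.21. Leaving out 1 library gave CCDC83 -0.15 to 0.54 and PREX2 -0.18 to 0.42; the sign turned without OSMI-2 replicate 1 (-0.15 and -0.18) and, for CCDC83, without combination replicate 2 (-0.14).

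The genes called with OSMI-2 against control, 586 as reported, were 101 with no filter, 262 at equal totals, 285 at equal upper quartiles, 1271 at equal mitochondrial mRNAs, 0 with no mean-variance trend (limma, with 2788 at an unadjusted p below 0.05, beside 667 in edgeR), 1412 with only 2 groups in the fit, 1509 in DESeq2 and 2 to 892 without 1 library. For the combination against AT7519, 3815 as reported, they were 865 with no mean-variance trend, 2428 with only 2 groups in the fit and 1683 to 3860 without 1 library. The cause of these changes was not tested. The replicate block gave 865 and 4295 calls in these 2 comparisons and changed no call of the 4 genes. Same-numbered libraries' deviations from their group means correlated with r from 0.0207 to 0.123 over 6 pairs of groups, so the numbers were not taken as pairs. ARG1 had 49 to 214 reads per library.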

Other observations

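Beyond the 4 genes, 13 other genes averaging 50 or more normalised counts had a fitted fall with OSMI-2 alone at least as large as that of DHRS2, and they are given here after their values were seen. Of these, 4 were called there (SNORD91A, SNORA73B, BRDT and the non-coding RNA gene RP11-443B7.1), and 3 of the 4 were also called lower in the combination against AT7519, with log2 changes of -0.99 for SNORA73B, -0.93 for BRDT and -0.78 for RP11-443B7.1. SNORD91A was at 0.07 (limma adjusted p = 0.945). Of the 9 that were not called with OSMI-2, 3 were called lower in the combination against AT7519, namely TRDN (log2 change -1.34, limma adjusted p = 0.0309), ALB (-1.54, 0.00747) and SNAI1 (-1.93, 0.0281). Of all genes tested 12.5% were called lower there, and of genes called lower with OSMI-2 alone 86.1% were. TRDN and SNAI1 averaged 71.2 and 56.8 normalised counts, and their results under the alternatives are not given.

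ALB encodes serum albumin, like ARG1 a gene of hepatocytes. It had 102 and 168 normalised counts in control, 80.5 and 35.6 with OSMI-2, 254 and 309 under AT7519 and 98.4 and 93.0 under both agents. It did not pass in the combination against AT7519 without combination replicate 2 (limma adjusted p = 0.0501) or with no mean-variance trend (0.0875). CPS1, which makes carbamoyl phosphate at the entry of the urea cycle, was at 5293 ± 322 with AT7519 and 5977 ± 479 with the combination (log2 change 0.17, SE 0.0898, limma adjusted p = 0.198), and it passed as a rise at equal upper quartiles (0.27, adjusted p = 0.0431).

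UGT2B10 had 3504 ± 118 normalised counts with AT7519 and 1536 ± 43.8 with the combination, a 2.28-fold fall (log2 change -1.19, SE 0.148, limma adjusted p = 0.000189).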
